A study of Mus musculus with 10 samples.

Results

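The DEAD and DEAH box RNA helicases are described here in mouse embryonic stem cells with and without knockdown of Rbfox2. The genes were chosen by name alone, as the autosomal entries of the expression table whose symbol starts with Ddx or Dhx and a digit. There were 47 such entries among 26857, of which 32 were Ddx and 15 were Dhx genes, and 3 further entries on the sex chromosomes (Ddx3x, Ddx26b and Ddx3y) were left out. The series measured RNA by poly(A) RNA-seq and RBFOX2 binding by iCLIP, in which ultraviolet light fixes a protein to its RNA targets and the fixed sites are sequenced. All cells were of the V6.5 mouse embryonic stem (ES) cell line, which was the shared background of every group. In the knockdown groups a lentivirus delivered the hairpin shFox2-1 or the hairpin shFox2-2, both aimed at Rbfox2, and in the control groups it delivered shLuc, aimed at luciferase, or shGFP, aimed at GFP. Every hairpin was introduced into 2 cultures, which were kept in puromycin at 1 µg/ml for 3 days and then without it for 24 h. The deposited table pools the cultures of a hairpin, so 4 values stand for 8 libraries. For iCLIP, cells carried human RBFOX2 with a FLAG-HA tag, or untagged RBFOX2 as the control, in a doxycycline-inducible vector after 6 days of hygromycin at 150 µg/ml. The protein was induced with doxycycline at 1 µg/ml for 24 h before crosslinking at 150 mJ/cm2. The binding map is thus that of an induced, tagged human protein, from 1 tagged and 1 untagged library with no replicate.

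DEAD and DEAH box proteins use ATP to unwind RNA or to strip proteins from it, and they carry the name of a conserved amino acid motif of the ATP-binding core. Members of the family drive the rearrangements of the spliceosome, the assembly of ribosomes, and the export, translation and decay of mRNA, and in embryonic stem cells many of them serve these housekeeping steps. Rbfox2 binds GCATG in RNA and regulates alternative exons, and the series concerns its effect on the genes of other RNA-binding proteins.

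The identity of the cells and of the knockdown was examined first. Of 10 ES cell markers, 9 were found and all 9 had a mean of at least 1 FPKM, a sequenced fragment count adjusted for transcript length and library size, and their summed level (with both entries listed for Sox2, at 91.0 and 0.725 FPKM in the mean) was 1649 FPKM in shFox2-1, 1401 in shFox2-2, 1361 in shLuc and 1494 in shGFP. Of the 7 fibroblast markers found, 1 reached 1 FPKM, and their sum lay between 2.83 and 3.45 FPKM in all hairpins. Neural markers reached 1 FPKM in 6 of 6 cases, with sums of 54.0 FPKM in shFox2-1, 45.4 in shFox2-2, 50.4 in shLuc and 54.7 in shGFP. Most of each sum was Tubb3 (38.3 FPKM in shFox2-1), which with Neurod1 was highest in shFox2-1, while Nes, Sox1 and Pax6 were lowest there. Nes had 3.87 FPKM in shFox2-1 and 7.92 in shFox2-2, against 8.49 in shLuc and 9.69 in shGFP. Sox1 had 1.48 FPKM in shFox2-1 and 2.22 in shFox2-2, against 3.38 in shLuc and 3.27 in shGFP. Trophoblast markers reached 1 FPKM in 3 of 6 cases, with sums of 79.3 FPKM in shFox2-1, 45.8 in shFox2-2, 42.1 in shLuc and 46.6 in shGFP, so that shFox2-1 stood apart. These sums were mostly Krt8, Krt18 and Tfap2c, at 39.0, 23.1 and 15.1 FPKM in shFox2-1. Cdx2, Elf5 and Hand1 had means below 1 FPKM. None of the trophoblast markers was at 0 in every hairpin, with means from 0.0906 to 25.6 FPKM. Their part in the shFox2-1 values given below was not tested. Endoderm markers reached 1 FPKM in 2 of 6 cases and mesoderm markers in 0 of 6. Rbfox2, listed as Rbm9, stood at 8.56 FPKM in shFox2-1 and 7.21 in shFox2-2, against 24.7 in shLuc and 23.3 in shGFP, which put the knockdown mean at 32.9% of the control mean. Its unadjusted limma p was 6.82e-05 and its adjusted limma p 0.913 over 20281 tested entries, so no call after adjustment was made even for the targeted gene.

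Of the 2 helicase genes with the lowest limma p, Ddx31 and Dhx35, the promoters are shown because both knockdown values of either gene lay above both of its control values. The sequences are from RefSeq on GRCm38.p6 and run from 250 bases before to 50 bases after the annotated start, for Ddx31 at chr2:28840156-28840455 (plus strand) and for Dhx35 at chr2:158794557-158794856 (plus strand). Capitals mark matches on either strand to GGGCGG (the GC box), CCAAT and CACGTG (an E-box).
Ddx31: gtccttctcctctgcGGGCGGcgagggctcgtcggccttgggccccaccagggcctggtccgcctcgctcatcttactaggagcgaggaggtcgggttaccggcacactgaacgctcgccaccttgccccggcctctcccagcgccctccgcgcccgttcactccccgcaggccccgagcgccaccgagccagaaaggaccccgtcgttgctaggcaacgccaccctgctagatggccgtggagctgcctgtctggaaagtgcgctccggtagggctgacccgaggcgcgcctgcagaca
Dhx35: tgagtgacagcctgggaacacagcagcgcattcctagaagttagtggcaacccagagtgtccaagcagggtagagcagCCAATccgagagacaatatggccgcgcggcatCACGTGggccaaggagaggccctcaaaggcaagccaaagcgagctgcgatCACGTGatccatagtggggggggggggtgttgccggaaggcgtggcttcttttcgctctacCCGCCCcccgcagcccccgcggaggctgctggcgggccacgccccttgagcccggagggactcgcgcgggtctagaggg
The Ddx31 window was 70% G or C and held 1 GC box. The Dhx35 window was 65% G or C and held 1 GC box, 1 CCAAT and 2 copies of CACGTG. Promoters were found for 42 of the 47 helicase genes, 53 windows in all. GGGCGG occurred in 32 of the 53 (60.4%), against 35.7% of all 32851 windows of this length. CACGTG occurred in 7 of the 53 (13.2%), against 7.15% of all windows. CCAAT occurred in 24 of the 53 (45.3%), against 37.4% of all windows. GCATG occurred in 22 of the 53 (41.5%), against 33.1% of all windows, and TATAAA in 5 of the 53 (9.43%), against 13.6%. By gene, 31 of the 42 held GGGCGG, since some genes had more than 1 window. All motifs were searched on both strands, no motif contains another, and a match is a description of the letters and not of binding. The 32851 windows were not limited to genes expressed in these cells, whereas all the helicase genes were expressed, so the sets compared are unlike.

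The helicase genes were expressed throughout, and none fell below 1 FPKM. Their mean over the 4 hairpins ran from 4.76 FPKM (Ddx25) to 216 FPKM (Ddx39), with a median of 18.1 FPKM, against a median of 7.81 FPKM over the 12632 expressed entries of the table (mean of at least 1 FPKM). A mean of 50 FPKM or more was found for 8 genes, 10 to 50 FPKM for 27 and under 10 FPKM for 12. The most abundant entries were Ddx39, Ddx17, Dhx15, Ddx5, Dhx9, Ddx21, Ddx1 and Ddx6, and the rarest were Ddx11, Dhx34, Ddx50, Ddx55 and Ddx25. The entry of Ddx50 may not cover the whole gene, as described below. FPKM is a level per length of transcript, so genes can be set side by side on it. Each value carries a deposited interval, and no source used here states its confidence level. Fragment counts behind the values are unknown.

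**Figure D1:**
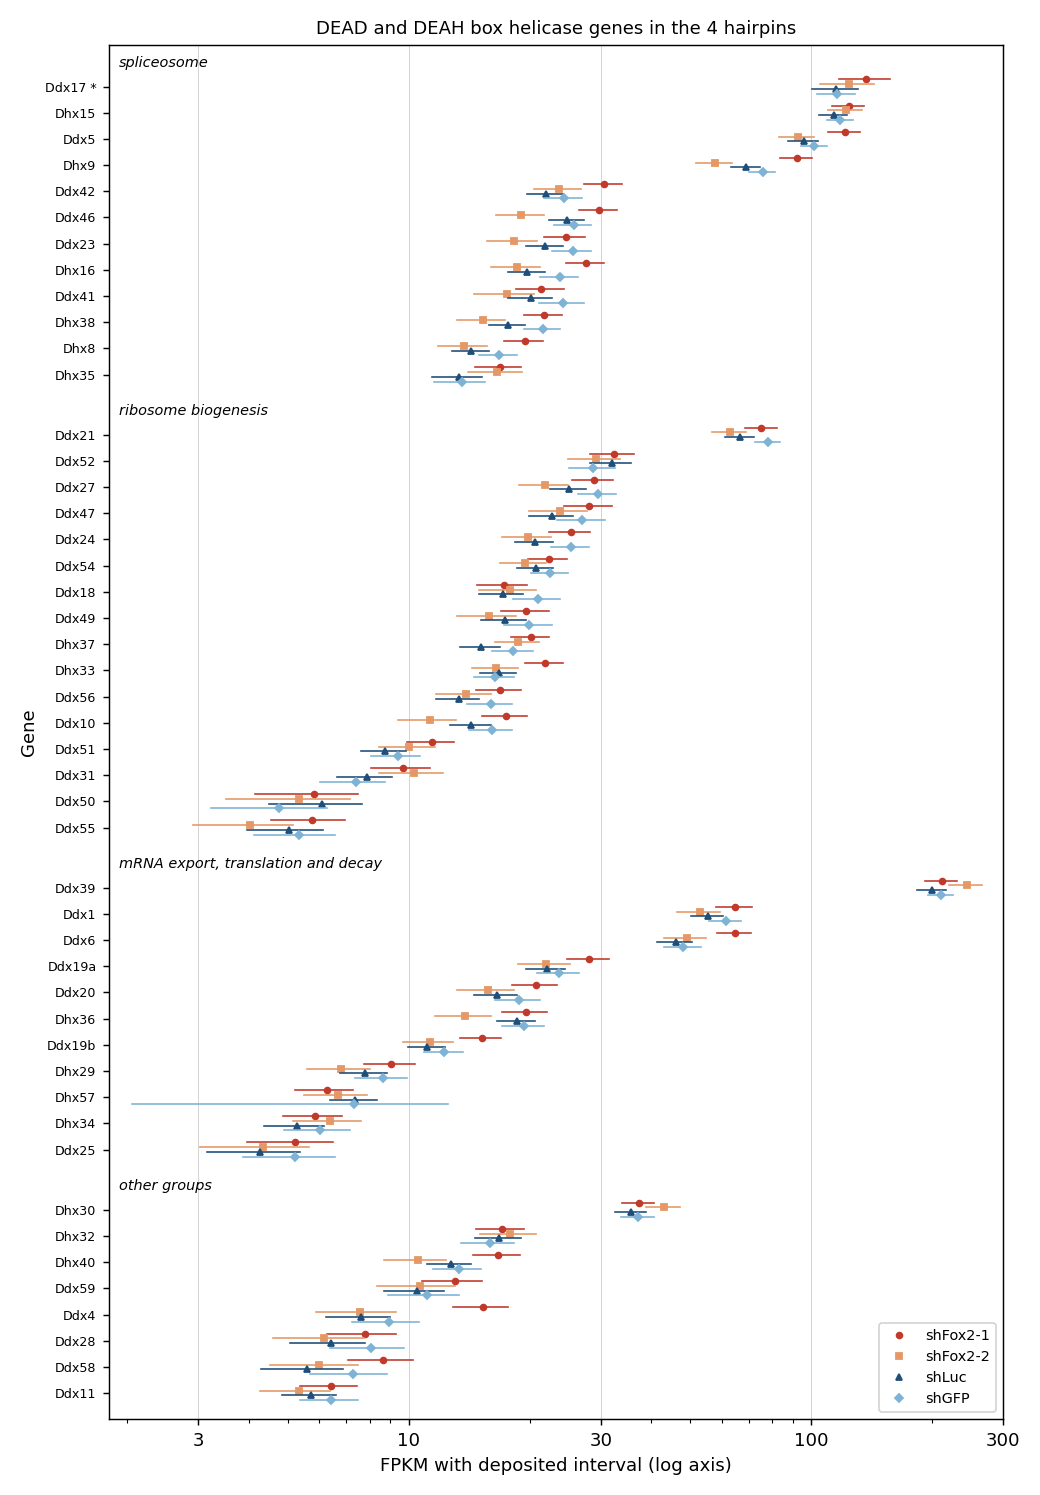
FPKM of each of the 47 helicase genes on a log axis, grouped by role, with a point for each hairpin (shFox2-1 and shFox2-2 above shLuc and shGFP) and a line for the deposited interval. The points of a gene lie close together compared with the spread between genes, which runs from 4.76 to 216 FPKM in the mean, and the asterisk marks Ddx17, whose shGFP value has a failed status.

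Knockdown of Rbfox2 was followed by small differences in this family, and no helicase gene passed the test. Of the 46 genes tested, limma called 0 at an adjusted p under 0.05, as it called 0% of all 20281 tested entries. Ddx17 was left out of the fit because its shGFP value has a failed status. At an unadjusted limma p under 0.05, 1 helicase gene (Ddx31) was higher in knockdown and 0 were lower, where the same rule called 2.3% of all tested entries higher and 2.17% lower. The log2 fold change of log2(FPKM + 1) ran from -0.19 to 0.35, with a median of 0.0379 against -0.0024 over all tested entries. It was above 0 for 29 of 46 genes (63%), against 49.4% of all tested and 47.6% of expressed entries. The median was -0.0534 without shLuc and -0.104 without shFox2-1. No helicase gene had the intervals of both knockdown hairpins above, or below, those of both control hairpins, an order found in 0.174% and 0.119% of expressed entries. After each hairpin was centred on its median gene, 0 helicase genes were separated in either direction, against 0.245% and 0.0633%. Because the cultures of a hairpin were pooled, p-values measure the spread between hairpins, and an exact permutation test of 2 against 2 values cannot go below 0.33. In bulk RNA, a lower level in every cell and fewer cells that express a gene cannot be told apart.

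In the spliceosome group, 11 of the 12 genes found were tested, with 7 log2 fold changes above 0, 4 below and a median of 0.06, and none passed the test. The median was -0.21 without shFox2-1, -0.05 without shLuc and 0.29 without shFox2-2. Dhx35, a component of the catalytic spliceosome, had 16.8 FPKM in shFox2-1 and 16.6 in shFox2-2, against 13.3 in shLuc and 13.5 in shGFP. Both knockdown values lay above both control values, 1.24-fold in the mean, although the intervals overlapped (14.0 to 19.1 in shFox2-2 against 11.6 to 15.5 in shGFP). This was a log2 fold change of 0.30 (standard error 0.12), at an unadjusted limma p of 0.0526 and an adjusted limma p of 0.978. The locus of Dhx35 overlaps another entry of the table.

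Dhx15, the helicase that takes spent spliceosomes apart, had 124 FPKM in shFox2-1 and 122 in shFox2-2, against 114 in shLuc and 118 in shGFP. The groups did not overlap, but the difference was 1.06-fold and well inside the intervals. The status of Dhx15 was not OK in any hairpin. Ddx5 and its paralog Ddx17, which act in splicing and as cofactors of microRNA processing, stood at similar levels. Ddx5 had 121 FPKM in shFox2-1 (interval 110 to 132) and 92.6 in shFox2-2, against 95.7 in shLuc and 102 in shGFP (94.3 to 109). Ddx17 had 137 FPKM in shFox2-1 and 124 in shFox2-2, against 116 in both shLuc and shGFP. For Ddx5 shFox2-1 alone was high, and for Ddx17 both knockdown values were above the controls with overlapping intervals.

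Dhx9, known as RNA helicase A, had 92.1 FPKM in shFox2-1 and 57.6 in shFox2-2, against 68.9 in shLuc and 75.7 in shGFP. The knockdown values thus lay on opposite sides of the controls, and the mean of the knockdown hairpins was 74.9 ± 24.4 FPKM against 72.3 ± 4.82 in the control hairpins (SD, n = 2 each). Ddx46, which in yeast (as Prp5) helps U2 onto the branch site, showed the same arrangement with 29.7 FPKM in shFox2-1 and 19.1 in shFox2-2, against 24.8 in shLuc and 25.7 in shGFP. Ddx23, which in yeast (as Prp28) helps to replace U1 by U6 at the 5′ splice site, had 24.5 FPKM in shFox2-1 and 18.2 in shFox2-2, against 21.9 in shLuc and 25.6 in shGFP. Its shFox2-2 value was the lowest of the 4 while its shFox2-1 value lay between the controls, and its log2 fold change was -0.15 (standard error 0.18). Ddx41, found in the catalytic spliceosome, had 21.4 FPKM in shFox2-1 and 17.5 in shFox2-2, against 20.2 in shLuc and 24.2 in shGFP, with a log2 fold change of -0.18 (standard error 0.16). Its groups overlapped. Ddx42, an ATPase associated with U2, had 30.5 FPKM in shFox2-1 and 23.6 in shFox2-2, against 21.9 in shLuc and 24.4 in shGFP, so that shFox2-1 alone stood above the controls.

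The 16 genes of ribosome biogenesis had 8 log2 fold changes above 0 and 8 below, with a median of -0.0048, and none passed the test. Leaving out 1 hairpin gave a median of -0.08 without shFox2-1 or without shLuc, 0.04 without shGFP and 0.13 without shFox2-2, and centring gave 0.0080. Ddx31, a nucleolar protein needed for large ribosomal subunits, had 9.67 FPKM in shFox2-1 and 10.3 in shFox2-2, against 7.86 in shLuc and 7.38 in shGFP. Both knockdown values were above both controls, 1.31-fold in the mean, while the interval of shFox2-1 (8.06 to 11.3) met that of shLuc (6.64 to 9.07). This was a log2 fold change of 0.35 (standard error 0.14), at an unadjusted limma p of 0.0454 and an adjusted limma p of 0.978. The entry was 1 of 8 helicase entries whose status was not OK in every hairpin, and with OK required in every hairpin it was not tested. The others were Ddx17, Ddx51, Ddx54, Ddx59, Dhx15, Dhx34 and Dhx57.

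Ddx51, which acts on the 3′ end of 28S ribosomal RNA, had 11.4 FPKM in shFox2-1 and 10.02 in shFox2-2, against 8.73 in shLuc and 9.38 in shGFP, with a log2 fold change of 0.22 (standard error 0.14). Its knockdown values were again above both controls with overlapping intervals, and its status was not OK in shLuc and shGFP. Ddx27, a nucleolar helicase of ribosomal RNA processing, had 28.8 FPKM in shFox2-1 and 21.8 in shFox2-2, against 25.0 in shLuc and 29.6 in shGFP, and its groups overlapped. Ddx21, which processes ribosomal RNA and is the most abundant gene of this group, had 75.2 FPKM in shFox2-1 and 62.8 in shFox2-2, against 66.5 in shLuc and 78.1 in shGFP. Its shGFP interval lay above its shLuc interval, which made it the 1 helicase gene of 46 with shGFP above shLuc (0.997% of expressed entries), and 0 had shGFP below shLuc (0.19%). After centring, 0 helicase genes had their controls apart in either direction (0.174% and 0.522% of expressed entries). The entry of Ddx50, the paralog of Ddx21, had 5.82 FPKM in shFox2-1 and 5.34 in shFox2-2, against 6.08 in shLuc and 4.75 in shGFP. This entry spans 5.24 kb, and 7 of the 8 clusters with the identifier of Ddx50 lay outside it. Whether the entry covers the whole gene is unknown, so its level is not ranked against that of Ddx21. Ddx10, whose yeast counterpart (Dbp4) acts on the small subunit, had 17.4 FPKM in shFox2-1 and 11.3 in shFox2-2, against 14.3 in shLuc and 16.1 in shGFP, with the knockdown hairpins at opposite ends.

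Among 11 genes of mRNA export, translation and decay, 8 log2 fold changes were above 0 and 3 below, with a median of 0.03, and none passed the test. This median was -0.10 without shFox2-1, -0.05 without shLuc and 0.13 without shFox2-2 or without shGFP. Ddx39, an export factor and the most abundant helicase gene, had 211 FPKM in shFox2-1 and 243 in shFox2-2, against 200 in shLuc and 210 in shGFP. Here shFox2-2 was the highest, the reverse of the order seen in most of the family, and the intervals of shFox2-2 (220 to 266) and shGFP (195 to 225) still overlapped. Its paralog Ddx39b is listed under the older name Bat1a and so was not chosen by name. Bat1a had 63.2 FPKM in shFox2-1 and 53.2 in shFox2-2, against 57.1 in shLuc and 64.7 in shGFP, with overlapping groups.

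Ddx6, which represses translation and promotes decapping of mRNA, had 64.6 FPKM in shFox2-1 (interval 58.2 to 70.9) and 49.0 FPKM in shFox2-2 (interval 43.1 to 54.9), against 46.0 in shLuc (41.5 to 50.6) and 48.1 in shGFP (43.0 to 53.1). Both knockdown values were above the controls, but shFox2-2 by 1.04-fold and shFox2-1 by 1.37-fold, and only the shFox2-1 interval was clear of the controls. The log2 fold change was 0.25 (standard error 0.16), at an unadjusted limma p of 0.159. Dhx36, which unwinds G-quadruplexes, had 19.5 FPKM in shFox2-1 (interval 17.0 to 22.0) and 13.8 FPKM in shFox2-2 (11.6 to 16.0), against 18.6 in shLuc (16.5 to 20.6) and 19.3 in shGFP (17.0 to 21.7). Only shFox2-2 was low, and the log2 fold change of -0.19 (standard error 0.18) rested on it. Its paralog Dhx57 had 6.25 FPKM in shFox2-1 and 6.68 in shFox2-2, against 7.35 in shLuc and 7.29 in shGFP. It was the 1 helicase gene with both knockdown values below both controls, but its shGFP interval reached from 2.05 to 12.5 FPKM.

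Ddx19a and Ddx19b, neighbouring paralogs that remodel mRNA particles at the nuclear pore, both stood highest in shFox2-1. Ddx19a had 28.0 FPKM in shFox2-1 and 21.9 in shFox2-2, against 22.0 in shLuc and 23.6 in shGFP. Ddx19b had 15.2 FPKM in shFox2-1 and 11.3 in shFox2-2, against 11.1 in shLuc and 12.3 in shGFP. The other 3 hairpins lay together for either gene, and since the sequences of paralogs are alike, the division of reads between such genes is uncertain. Ddx1, a subunit of the tRNA ligase complex, had 64.7 FPKM in shFox2-1 and 52.8 in shFox2-2, against 55.3 in shLuc and 61.4 in shGFP, with both controls between the knockdown hairpins.

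The remaining roles had few genes. Dhx30, which acts in the assembly of mitochondrial ribosomes, had 37.3 FPKM in shFox2-1 and 43.1 in shFox2-2, against 35.8 in shLuc and 37.2 in shGFP. Its shFox2-2 value was the highest, as for Ddx39. Ddx58, the sensor RIG-I of viral RNA, had 8.65 FPKM in shFox2-1 and 5.98 in shFox2-2, against 5.58 in shLuc and 7.26 in shGFP, with overlapping groups. Its paralog Dhx58, which also binds viral RNA, is listed under the older name D11Lgp2e and so was not chosen by name. Dhx58 had 0.524 FPKM in shFox2-1 and 0.315 in shFox2-2, against 0.772 in shLuc and 0.990 in shGFP, all below 1 FPKM. Both of its knockdown values were below both controls, with a log2 fold change of -0.41 (standard error 0.13), an unadjusted limma p of 0.0236 and an adjusted limma p of 0.978. Ddx4, the germ cell helicase Vasa, had 15.3 FPKM in shFox2-1 (interval 12.9 to 17.7) and 7.58 FPKM in shFox2-2 (5.88 to 9.27), against 7.61 in shLuc (6.21 to 9.0) and 8.94 in shGFP (7.24 to 10.6). It had the largest log2 fold change of the helicase genes, 0.35, but with a standard error of 0.31 and an unadjusted limma p of 0.306, since shFox2-1 was 1.84-fold above the controls and shFox2-2 was below both. Ddx11, a DNA helicase of sister chromatid cohesion, had 6.40 FPKM in shFox2-1 and 5.33 in shFox2-2, against 5.71 in shLuc and 6.41 in shGFP. Dhx32, a paralog of Dhx15, had 17.0 FPKM in shFox2-1 and 17.9 in shFox2-2, against 16.8 in shLuc and 15.9 in shGFP. Both of its knockdown values were above the controls by little, and its locus overlaps Bccip on the opposite strand.

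The 2 knockdown hairpins stood apart from each other in this family. As deposited, the medians of these hairpins lay on opposite sides of the controls also in the related lists described below and over all expressed entries. The difference shFox2-1 minus shFox2-2 in log2(FPKM + 1) was above 0 for 40 of 47 helicase genes (85.1%), against 69.6% of expressed entries, with a median of 0.29 against 0.15. After centring it was above 0 for 34 of 47 (72.3%), against 48.9% of expressed entries, with a median of 0.12 against -0.01. The 2 knockdown hairpins share their controls, so their differences from those controls are given side by side and were not compared with each other as separate results. In shFox2-1, 44 of 47 helicase genes (93.6%) were above the control mean, against 62.1% of expressed entries, with a median difference of 0.15 in log2(FPKM + 1), against a median of 0.07 over the expressed entries. In shFox2-2, 35 of 47 (74.5%) were below the control mean, against 66.9% of expressed entries, with a median of -0.10 against -0.09 over the expressed entries. The whole table was offset in the same way, since the median gene stood 0.18 higher on the log2 scale in shFox2-1 than in shFox2-2. With every hairpin centred on its median gene, the medians of the helicase genes were 0.07 in shFox2-1 and -0.01 in shFox2-2, against 0.0026 and -0.0056 over the expressed entries. Then 35 genes (74.5%) were above the control mean in shFox2-1, against 50.6% of expressed entries, and 24 (51.1%) below it in shFox2-2, against 50.9%.

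**Figure D2:**
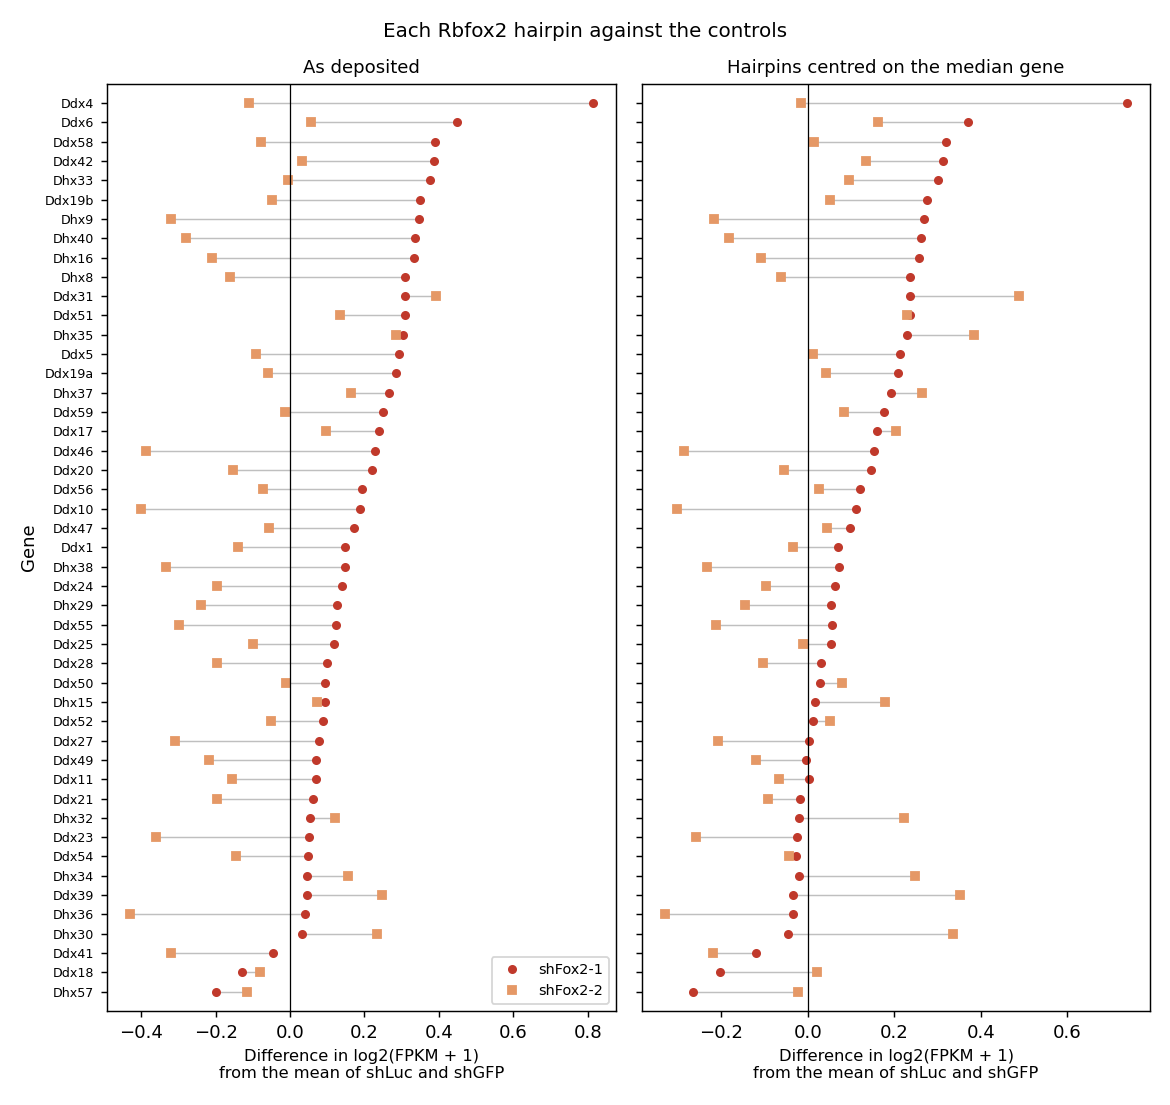
Difference in log2(FPKM + 1) of shFox2-1 (circles) and of shFox2-2 (squares) from the mean of shLuc and shGFP for each helicase gene, as deposited (left) and after centring the hairpins on the median gene (right). As deposited 44 of the 47 shFox2-1 points are above 0 and 35 of the 47 shFox2-2 points below it; after centring 35 and 24 are.

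By the deposited intervals, shFox2-1 lay above both controls for 6 of 46 genes (Dhx9, Ddx42, Dhx33, Ddx5, Ddx4 and Ddx6), where 5.44% of expressed entries did, and below both for 0, where 2.11% did. After centring, 3 of them (Dhx9, Ddx4 and Ddx6) were left, against 3.32% of expressed entries, and 0 lay below both controls, against 3.13%. The shFox2-2 interval lay below both controls for Ddx46 and Dhx36, where 1.98% of expressed entries did, and above both for 0 (0.348%). After centring it lay below for 0 helicase genes (0.926%) and above both for Ddx39 and Dhx30 (1.74%). Dhx33, a nucleolar helicase, had 21.8 FPKM in shFox2-1 and 16.5 in shFox2-2, against 16.8 in shLuc and 16.4 in shGFP, so its 3 other hairpins were nearly level.

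The interval of shFox2-1 was above that of shFox2-2 for 16 of 46 helicase genes (34.8%), against 13% of expressed entries, and below it for 0, against 1.97%. Relative to its value, an interval can be far narrower at a high level, as for Ddx39 (192 to 231 FPKM in shFox2-1) against Ddx50 (4.15 to 7.48). The helicase genes had a median of 18.1 FPKM, against 7.81 over the expressed entries. No share based on intervals was weighted for level. After centring, it was above for 6 (Dhx9, Dhx40, Ddx46, Ddx4, Dhx16 and Ddx10), against 5.57% of expressed entries, and below for Ddx39 and Dhx30, against 5.5%. The order of the 4 values was counted as well, without regard to the intervals. Both knockdown values were above both controls for 9 genes (19.6%), against 14.3% of expressed entries, and below both for 1, Dhx57 (2.17%), against 17.8%. These 9 were Ddx31, Dhx35, Ddx51, Dhx15, Dhx37, Dhx32, Ddx39, Ddx6 and Dhx30. Dhx37, whose yeast counterpart (Dhr1) acts in the small ribosomal subunit, had 20.2 FPKM in shFox2-1 and 18.7 in shFox2-2, against 15.1 in shLuc and 18.2 in shGFP. With centring, 12 genes were above both controls (17.7% of expressed entries) and Ddx41, Dhx36 and Ddx54 below both (18.3%), while Dhx57 was in neither set. The shFox2-1 value was the highest of the 4 for 28 helicase genes (60.9%), against 45.6% of expressed entries, and after centring for 22 (47.8%), against 31.3%. The shFox2-2 value was the lowest for 24 (52.2%), against 45.5%, and after centring for 18 (39.1%), against 28.2%. For 6 genes (Dhx9, Dhx40, Ddx46, Ddx4, Dhx16 and Ddx10) shFox2-1 was above and shFox2-2 below both control values as deposited, with the knockdown intervals apart under both scalings, against 4.6% of expressed entries. After centring, the values of 5 of them (10.9%) still lay on opposite sides of both controls, against 3.97% of expressed entries. The exception was Ddx4, whose centred values were 14.4 FPKM in shFox2-1 and 8.11 in shFox2-2, against 7.78 in shLuc and 8.64 in shGFP. For 0 genes did the intervals of shFox2-1 and shFox2-2 also clear those of both controls on opposite sides, against 0.459%.

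RBFOX2 iCLIP clusters were widespread in helicase loci. The authors' list held 35639 clusters enriched in the tagged library over the untagged one, and 116 of them overlapped a helicase locus by at least 1 base. Of these, 112 were on the strand of the helicase gene and the other 4 carried the identifiers of Bccip (in the Dhx32 locus) and Homer3 (in the Ddx49 locus). At least 1 cluster was found in 30 of 47 loci (63.8%), against 55.3% of expressed autosomal entries, and at least 5 clusters in 14 (29.8%), against 18.3%. By the gene identifiers of the cluster list, matched by symbol, 30 helicase genes (63.8%) had a cluster, Dhx30 in place of Ddx49, against 41.3% of those entries. An entry listed under an older name, as Rbm9 is, can fail to match by symbol, so the 41.3% may be too low and the gap too wide. By overlap, the share of loci with a cluster rose with the length of the locus for all entries but less evenly for the helicases. Under 20 kb, 9 of 18 helicase loci had a cluster (50%), against 31.8% of all such loci. Between 20 and 40 kb, 15 of 20 had a cluster (75%), against 70.2%, and from 40 kb, 6 of 9 (66.7%), against 84.5%. All 8 helicase loci with a mean of 50 FPKM or more had clusters, against 57.6% of all loci at that level. The helicase share was the lower one at the other levels. From 10 to 50 FPKM, 17 of 27 had a cluster (63.0%), against 66.2%, and under 10 FPKM, 5 of 12 (41.7%), against 48.4%. When all loci were weighted to the deciles of FPKM and length of the helicases, 73.4% of them had a cluster, against 63.0% of the 46 helicase loci so compared. The weighting was done for overlap with the locus and not for gene identifiers, and neither difference was tested. Clusters numbered per locus went with its length (Spearman's rho 0.42 over the 47 loci, 0.64 over 12129 expressed autosomal entries) and with mean FPKM (0.33 and 0.22), all from the same 2 libraries.

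**Figure D3:**
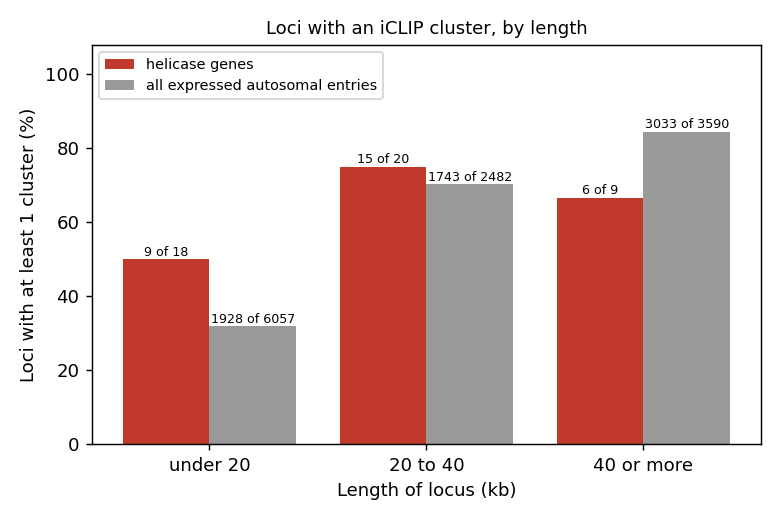
Percentage of loci with at least 1 iCLIP cluster by length of locus, for the helicase genes (red) and for all expressed autosomal entries (grey), with the counts above each bar. The helicase bar is the higher one under 20 kb (50% against 31.8%) and the lower one from 40 kb (66.7% against 84.5%).

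Clusters are given below by the authors' coverage and by their fold over the untagged library, which describe a cluster within this list. On the helicase strand the median coverage was 387.5, against 374 over the whole list, and the highest was 7201. No reads in the untagged library were recorded for 46 of the 112 (41.1%, Wilson 95% interval 32.4 to 50.3), against 44.1% over all expressed loci, and a fold of at least 4, those without untagged reads included, for 72 (64.3%), against 69.9%. The summit lay in the last 1 kb of the locus for 11 of 112 (9.82%, Wilson 95% interval 5.57 to 16.7), against 6.70% over all expressed loci. It lay in the first 2 kb for 3 (2.68%), against 3.91%, and elsewhere for 98 (87.5%). The Wilson intervals cover counting error only. Exons and introns of the authors' build, mm9, were not used here, so positions are given from the ends of the locus.

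Dhx9 had the most clusters, 9, along a locus of 31.8 kb (mm9 chromosome 1, 155302943 to 155334738). The strongest of them had a coverage of 6946 and a fold over the untagged library of 1.85, with its summit 0.111 kb from the downstream end (155302909 to 155303500). A second one, 6.56 kb from that end, combined a coverage of 4994 with a fold of 8.58. Dhx15 had 8 clusters with coverages up to 697. Ddx10 had 7 in a locus of 158 kb, of which 6 had no untagged reads and 1 a fold of 4.02.

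Ddx17 held the cluster of highest coverage in the family, 7201 (mm9 chromosome 15, 79359896 to 79360457), but its fold over the untagged library was 1.05. All 5 clusters of Ddx17 had folds between 1.05 and 2.01, so the untagged library had much of the same signal there. Ddx5 had 3 clusters, the strongest with a coverage of 3042, a fold of 1.84 and a summit 0.142 kb from the downstream end. Ddx46 differed from these, with a coverage of 3864 and a fold of 34.5 at 55757007 to 55757465 of mm9 chromosome 13, near the middle of its locus, 20.9 kb from the upstream end.

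Ddx19a had 6 clusters, 5 of them within 3 kb of its upstream end. The strongest had a coverage of 3861 and a fold of 11.49, 2.23 kb from that end (mm9 chromosome 8, 113519333 to 113519482). Of the 6, 3 carried the identifier of Ddx19b, whose own locus held 5 further clusters with coverages from 208 to 987. Ddx21 had 6 clusters with coverages from 191 to 1592, and Ddx27 and Ddx11 also had 6 each, of which 5 of those in Ddx27 had no untagged reads. For Ddx50 the table's locus spans 5.24 kb and held 1 cluster, while 7 others with its identifier lay outside it, so the count there depends on the locus used.

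Of the 46 tested genes, 29 (63.0%) had clusters in their locus, against 55.3% of expressed autosomal entries. With these entries weighted to the deciles of FPKM and length of the helicases, the share was 73.4%. Among the 29 is Ddx49, whose clusters were on the opposite strand and carried the identifier of Homer3. Ddx31 had 4, between 23.8 and 31.2 kb from its upstream end, the strongest with a coverage of 1442 and a fold of 11.54. Dhx35 had 6 with coverages from 150 to 648. Dhx36 had 5 with coverages up to 1903, and Ddx6 had 3 with coverages up to 1462. Ddx4, Ddx47, Dhx16, Dhx38, Dhx8 and Dhx37 had none, and neither did Ddx18, Ddx20, Ddx54 or Ddx56.

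**Figure D4:**
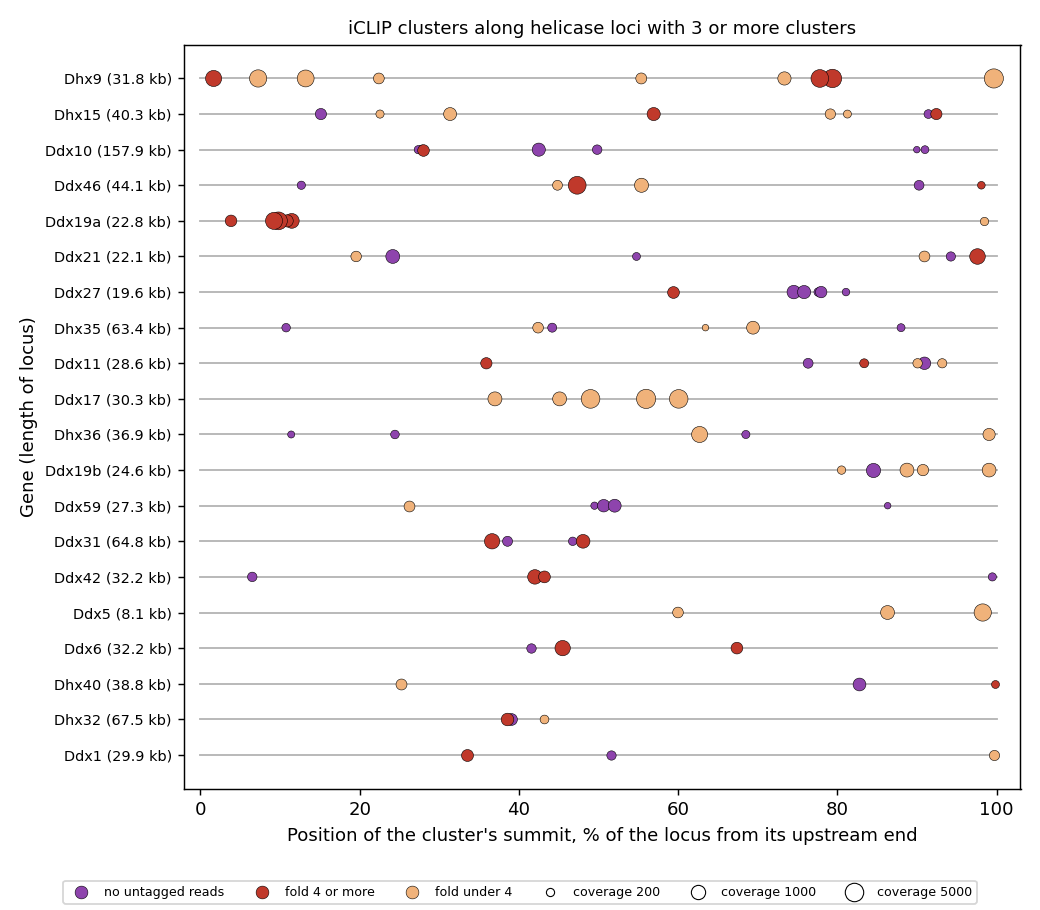
Position of each iCLIP cluster along the helicase loci with at least 3 clusters on the strand of the gene, as a percentage of the locus from its upstream end. Larger circles have a higher coverage and colours give the fold over the untagged library (purple for no untagged reads, red for 4 or more, orange for less); the largest circles are those of Ddx17 (7201) and Dhx9 (6946), both orange, and red circles include those of Dhx9 (4994) and Ddx46 (3864).

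The values after knockdown were also set out by the presence of clusters. The 29 tested genes with clusters on either strand of the locus, Ddx49 included, had a median log2 fold change of 0.04, and the 17 without had 0.03. Among expressed autosomal entries these medians were 0.0032 with clusters and -0.0235 without. In shFox2-1 the median difference from the controls was 0.19 for helicase genes with clusters and 0.13 for those without, and in shFox2-2 it was -0.08 and -0.12. Over expressed autosomal entries, those with clusters also had the higher median in shFox2-1, 0.10 against 0.03 without. In shFox2-2 these entries had -0.10 with clusters and -0.09 without. These are medians over genes and carry no test.

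Other helicases and the partners of the family were read from the same fit, and none of them passed the test. Of 15 other DExD/H box helicases, with log2 fold changes from -0.20 to 0.11, 6 had a log2 fold change above 0 and 9 below, with a median of -0.04, and 0 had an unadjusted limma p under 0.05. Eif4a1, the translation initiation helicase, had 141 FPKM in shFox2-1 and 127 in shFox2-2, against 142 in shLuc and 143 in shGFP. Of 8 UPF1-like helicases, with log2 fold changes from -0.27 to 0.27, 4 were above 0 and 4 below, with a median of 0.02 and 0 at an unadjusted limma p under 0.05. Aqr, an intron-binding spliceosome helicase, had 53.4 FPKM in shFox2-1 and 61.3 in shFox2-2, against 52.0 in shLuc and 53.9 in shGFP. Of 48 partners and cofactors tested, with log2 fold changes from -0.29 (Gemin7) to 0.74 (Magohb), 29 were above 0 and 19 below, with a median of 0.05 and 0 at an unadjusted limma p under 0.05. Magohb had 11.8 FPKM in shFox2-1 and 10.4 in shFox2-2, against 4.09 in shLuc and 9.20 in shGFP. Its controls stood far apart, and the standard error of its log2 fold change was 0.33. Eif4g1, the scaffold that activates the Eif4a helicases, had 213 FPKM in both shFox2-1 and shFox2-2, against 188 in shLuc and 195 in shGFP. As deposited, the median difference of shFox2-1 from the controls in log2(FPKM + 1) was 0.15 for the partners. It was 0.06 for the other DExD/H box helicases and 0.09 for the UPF1-like helicases. In shFox2-2 these medians were -0.09, -0.19 and -0.06. The helicase genes chosen by name had 0.15 in shFox2-1 and -0.10 in shFox2-2, and all expressed entries had 0.07 and -0.09. The medians of the related lists were not centred. Clusters were found in 39 of the 48 partner genes, in 11 of the 15 other DExD/H box helicases and in 6 of the 8 UPF1-like helicases, against 55.3% of expressed autosomal entries. These lists were not limited to autosomes or to expressed genes. Their counts were not weighted for level or length of the locus and were not tested.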

How the data were processed

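Expression was deposited by the authors as FPKM with a lower and upper bound and a status for each hairpin, 2 cultures pooled, per the file headers. TopHat2 2.0, Cufflinks 2.1.1 and mm9 are named in the submitters' processing notes, and scaling between hairpins is not given in the sources used here. Clusters, each with its coverage, fold over the untagged control and q-value, were deposited by the authors for 1 tagged library. Their caller is not given in the sources used here, and 35220 of 35639 identifiers were matched to a symbol.

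Entries with a failed status (105 of 26857) or at 0 in every hairpin (6477) were left out. The remaining 20281 were tested on log2(FPKM + 1), a scale that understates changes of low genes, with limma 3.58.1 under R 4.3.3 and a mean-variance trend. Benjamini-Hochberg adjustment covered all tested entries. Intervals were compared over the entries with a mean of at least 1 FPKM that had not failed. Depth is unknown. Clusters were assigned by an overlap of at least 1 base. Helicases and lists were chosen with earlier results of these data known. Named were the genes of highest level, the 5 highest and 5 lowest log2 fold changes, the 8 genes with most clusters (9 with ties), paralogs and the most abundant gene of each role. Genes singled out by a pattern of intervals, such as Dhx33 and Dhx37, were chosen after their values were seen.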

Additional observations from a re-analysis of the deposited data

Results flagged for a closer look

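For 6 of 46 helicase genes (13%) the 2 knockdown hairpins lay on opposite sides of both control values as deposited, shFox2-1 above and shFox2-2 below, with their intervals apart both as deposited and after centring. The same was true of 4.6% of expressed entries, a share not weighted for level. For Ddx4 the shFox2-2 value was barely below the controls as deposited (7.58 FPKM in shFox2-2, against 7.61 in shLuc and 8.94 in shGFP). After centring it lay between them (8.11 FPKM in shFox2-2, against 7.78 in shLuc and 8.64 in shGFP), and the other 5 genes kept the order. The difference shFox2-1 minus shFox2-2 in log2(FPKM + 1) was 0.92 for Ddx4, 0.67 for Dhx9, 0.62 for Ddx46, 0.62 for Dhx40, 0.59 for Ddx10 and 0.54 for Dhx16. Each hairpin has 1 pooled value, so these differences were not tested. The median gene of the whole table differed between these hairpins by 0.18. Dhx40, a helicase of less studied function, had 16.7 FPKM in shFox2-1 and 10.5 in shFox2-2, against 12.7 in shLuc and 13.3 in shGFP. Dhx16, the mammalian counterpart of yeast Prp2, which activates the spliceosome, had 27.6 FPKM in shFox2-1 and 18.6 in shFox2-2, against 19.7 in shLuc and 23.8 in shGFP.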

How the results depend on the processing

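No paired analysis was possible because the deposited values pool the cultures of a hairpin. The search for GCATG in clusters was not run, since no mm9 genome was used here. limma called 0 helicase genes at an adjusted p under 0.05 under every setting tried. The count higher at an unadjusted limma p under 0.05 was 1 (Ddx31) as reported and with a pseudocount of 0.1 or 5, but 0 with a mean of at least 1 FPKM required or status OK required in every hairpin, and 2 (Ddx31 and Dhx35) with no filter on low values, with hairpins centred on the median gene or without the trend. The cause of these shifts was not tested. With each hairpin left out in turn, it ran from 0 (without shLuc or shGFP) to 5 (without shFox2-2), and the count lower from 0 to 3 (without shFox2-1: Dhx40, Ddx46 and Dhx36). A lone hairpin in an arm is there assumed to vary like the other arm. Genes with separated intervals then numbered 0 to 6 higher and 0 to 2 lower, and the median log2 fold change ran from -0.104 without shFox2-1 to 0.148 without shFox2-2, and was -0.0534 without shLuc. The log2 fold change changed sign for 4 named genes, running from -0.430 to 0.0418 for Dhx36, -0.359 to 0.0516 for Ddx23, -0.308 to 0.0783 for Ddx27 and -0.109 to 0.813 for Ddx4. The 10 genes named for their log2 fold change kept their direction in 77 of 77 values under the other settings. Of those settings, only the pseudocounts and centring can change a log2 fold change. The rest change which entries are fitted or how their spread is estimated, so their agreement was fixed in advance. Centring, chosen for these counts after seeing the data, left 3 of 6 genes with the shFox2-1 interval above both controls, 0 of 2 with the shFox2-2 interval below both, and 6 of 16 with shFox2-1 above shFox2-2. Clusters in helicase loci numbered 61 above the list's median coverage and 75 at a fold of at least 4, against 116, and the other assignments gave 112 to 122.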
